A study of Mus musculus with 3 samples.

Results

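The genes described here are 10 genes of the YAP and integrin mechanosensing system, chosen by symbol: Cyr61, Ctgf, Ankrd1, Amotl2, Itga8, Npnt, Itgb1, Itgav, Itga5 and Fn1. They are 10 of the 28868 nuclear-encoded mouse features found in at least 1 of 3 plates of embryonic kidney cells sorted and sequenced by SORT-seq, in which transcripts carry a well barcode and a molecular identifier. The first plate held cells of E12.5 kidneys explanted and cultured for 5 days, and the second held cells of cultured E11.5 kidneys, whose title gives 7 days of culture where the stage label gives 5. Both cultured plates came from C57BL/6 mice with LGR6-EGFP-IRES-CreERT2 and ROSA26-tdTomato, grown in medium with 10% fetal calf serum. The third plate held uncultured E11.5 kidney cells of C57BL/6 mice with LGR6-EGFP-IRES-CreERT2 and no tdTomato allele, so all 3 plates carry the Lgr6 reporter and there is no wild-type plate. Culture, the tdTomato allele and the sequencing run differ together between the cultured plates and the uncultured one, as does embryonic stage for the E12.5 cultured plate, so their parts in any difference cannot be told apart. The gate used in the sort and the number of animals per plate are not given in the sources used here. Each group is 1 plate, so nothing below is tested. Intervals are 95% and cover counting error only.

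YAP and its relative TAZ are coactivators that enter the nucleus when cells spread on a stiff or tense substrate and act through TEAD transcription factors, while the Hippo kinases hold them in the cytoplasm. Cyr61 and Ctgf encode secreted matricellular proteins, Ankrd1 a nuclear and sarcomeric ankyrin repeat protein, and Amotl2 a YAP-binding scaffold that is itself a YAP target. Integrins couple the matrix to the actin skeleton as pairs of an α and a β subunit. In the mouse kidney, nephronectin (Npnt) in the basement membrane of the ureteric bud binds integrin α8β1 (Itga8 with Itgb1) on the surrounding mesenchyme, and loss of either gene impairs Gdnf expression and bud outgrowth. Itgav and Itga5 encode further α subunits that bind the RGD sequence, and Itga5 with Itgb1 is the main fibronectin (Fn1) receptor.

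The TEAD core motif GGAATG, or its reverse complement CATTCC, was present in the 250 bases before the RefSeq start of Cyr61, Amotl2, Ankrd1 and Itgb1. 8 of the 10 genes matched a RefSeq promoter (build GRCm38.p6); Ctgf and Fn1 did not. The 3 sequences below are those of the YAP targets with a promoter, shown because these targets have the same letters and different levels below. They read 5′ to 3′ on the gene's own strand, the capitals mark the TEAD core in either orientation, and the windows are chr3:145649986-145650235 on the minus strand, chr9:102717554-102717803 on the plus strand and chr19:36119845-36120094 on the minus strand.
Cyr61: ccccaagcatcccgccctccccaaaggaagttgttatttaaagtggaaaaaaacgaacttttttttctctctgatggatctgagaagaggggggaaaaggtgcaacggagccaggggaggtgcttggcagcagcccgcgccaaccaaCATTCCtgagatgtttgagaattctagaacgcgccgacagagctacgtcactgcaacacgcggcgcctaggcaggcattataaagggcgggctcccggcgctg
Amotl2: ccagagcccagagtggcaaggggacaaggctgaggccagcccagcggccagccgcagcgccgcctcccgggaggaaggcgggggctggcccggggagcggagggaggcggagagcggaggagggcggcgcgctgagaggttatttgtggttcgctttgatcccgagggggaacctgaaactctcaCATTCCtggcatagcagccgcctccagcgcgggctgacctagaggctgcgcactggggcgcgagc
Ankrd1: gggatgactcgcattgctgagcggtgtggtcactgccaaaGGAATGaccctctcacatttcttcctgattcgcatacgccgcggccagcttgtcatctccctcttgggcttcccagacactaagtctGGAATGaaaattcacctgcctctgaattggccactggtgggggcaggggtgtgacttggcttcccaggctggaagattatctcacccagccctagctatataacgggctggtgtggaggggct
Searched on both strands, GGAATG was found in 12.6% of all 32851 RefSeq promoters of this length. The AP-1 motif TGANTCA, in 6.75% of promoters, and the CArG box, in 1.47%, were in none of the 8 matched promoters. A match describes the letters only.

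The plates gave 200, 300 and 337 kept single-cell wells for the E12.5 cultured, E11.5 cultured and uncultured plates, with 2349129, 3210838 and 4159791 counts and medians of 9212, 8993 and 6732 counts per well. Wells above 3 times the median held 15.0% of the counts in 7 wells and 10.6% in 9 wells on the E12.5 and E11.5 cultured plates, against 45.6% in 32 wells on the uncultured plate. Levels are CPM, counts per 1000000 nuclear-encoded mouse counts summed over wells, so fewer cells with a transcript and less transcript per cell cannot be told apart in them. The stroma markers summed to 19930 and 26323 CPM in the E12.5 and E11.5 cultured wells and 2777 CPM in the uncultured wells, and nephron progenitor markers to 488, 294 and 1370 CPM. Immediate early genes, which cells switch on within minutes of stress or serum, summed to 7965, 9533 and 1212 CPM.

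Culture was compared with no culture first among the YAP targets. Ctgf was seen mostly on the cultured plates, with 126 counts in 27 of 200 E12.5 cultured wells and 157 counts in 45 of 300 E11.5 cultured wells, against 7 counts in 6 of 337 uncultured wells. These are levels of 53.7 and 49.0 CPM against 1.68 CPM, a 31.9-fold (15.0 to 80.9) and a 29.1-fold (13.8 to 73.5) higher level in culture. The size of this fold depended on deep wells: it was 10.5 and 9.36 without wells over 3 times the median, and 6.74 and 2.81 with every well thinned to 1000 counts. The thinned E11.5 fold rested on fewer than 10 counts in the pair. Cyr61 stood at 219 and 554 CPM in E12.5 and E11.5 cultured wells, against 77.7 CPM on the uncultured plate. The folds were 2.82 (2.45 to 3.25) and 7.13 (6.34 to 8.06), or 2.23 and 4.96 after thinning, and the 3 intervals of the levels did not overlap. Amotl2 did not share this pattern, with 83.9 and 86.6 CPM in culture against 104 CPM without it, ratios of 0.81 (0.68 to 0.96) and 0.83 (0.71 to 0.97). A count of Amotl2 was found in 37.0% and 36.7% of cultured wells and 47.2% of uncultured ones. Ankrd1 was at the limit of detection: it has no entry in the E12.5 cultured table, had 3 counts in 3 of 300 E11.5 cultured wells, and had none in 337 uncultured wells, which allows a share of up to 0.890% of wells with a count.

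Among the integrin genes and their ligands, Fn1 and Itga5 were the ones past 2-fold. Fn1 stood at 1280 and 1390 CPM in culture against 474 CPM without it, 2.70-fold (2.55 to 2.86) and 2.93-fold (2.78 to 3.10) higher. Itga5, the α subunit of its receptor, stood at 28.1 and 31.5 CPM against 8.90 CPM, 3.16-fold (2.08 to 4.86) and 3.54-fold (2.41 to 5.30) higher. Both genes lay apart from the uncultured plate in the same direction on both cultured plates. The common β subunit Itgb1 moved little, at 584 and 559 CPM against 458 CPM. Itgav was at 99.6 and 111 CPM against 90.2 CPM, and the interval of its E12.5 ratio, 1.10 (0.93 to 1.30), includes 1. Itga8 stood at 85.1 and 91.3 CPM against 57.7 CPM, ratios of 1.48 (1.22 to 1.79) and 1.58 (1.33 to 1.88). Npnt stood at 40.9 and 28.6 CPM against 27.7 CPM.

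In all, 4 of the 9 genes with at least 10 counts were at least 2-fold higher on each cultured plate and 0 were lower. The same fold was passed upwards by 18.9% of all features at E12.5 and 20.9% at E11.5, and downwards by 13.1% and 11.3%. The immediate early genes given above moved with the same plates, with 17 of 18 and 19 of 19 measured ones at least 2-fold higher; their part in these differences was not tested.

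**Figure D1:**
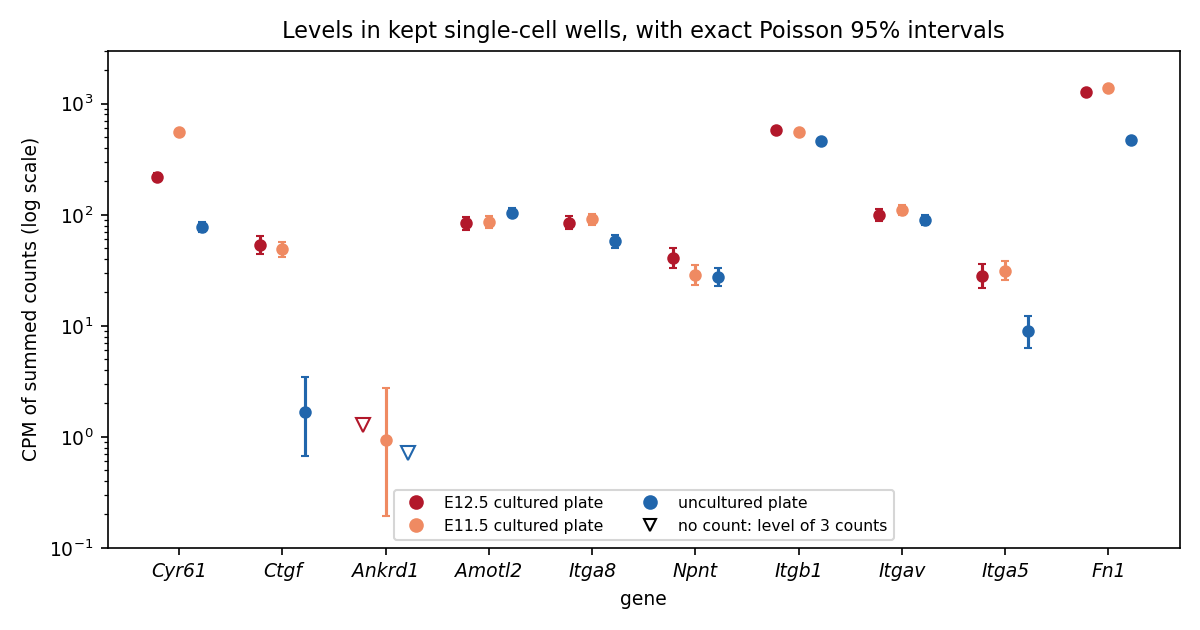
Levels of the 10 genes in the kept single-cell wells of each plate, in CPM on a log axis, with exact Poisson 95% intervals; open triangles mark the level of 3 counts where a gene had none. Ctgf, at 53.7 and 49.0 CPM in culture and 1.68 CPM without, shows the widest gap, and Amotl2 the reverse order.

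The 2 cultured plates were close to each other except for Cyr61. Cyr61 was lower on the E12.5 cultured plate, 219 CPM, than on the E11.5 cultured plate, 554 CPM, a 2.53-fold (2.29 to 2.80) difference. It was found in 118 of 200 E12.5 cultured wells and 204 of 300 E11.5 cultured wells, with medians of 1 and 2 counts per well. The difference was 2.52-fold (2.27 to 2.81) in Col1a1 wells alone, a class defined below. That class held 173 of 200 and 283 of 300 kept wells, so this ratio rests mostly on the same counts. Cyr61 was the only gene of the 9 past 2-fold, in either direction, where 8.33% of all features were 2-fold lower and 4.53% higher on the E12.5 cultured plate. The other 8 ratios of the E12.5 over the E11.5 cultured plate ran between 0.89 for Itga5 and 1.43 (1.06 to 1.92) for Npnt, which stood at 40.9 and 28.6 CPM.

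The same ratios were then taken within marker classes of wells. Wells were grouped by counts of at least 2 of a marker, as Epcam wells, then Six2 wells among the rest, then Col1a1 wells among the rest. Epcam is an epithelial adhesion gene, Six2 a transcription factor of nephron progenitors and Col1a1 a collagen gene of stroma. Each also belongs to the marker sum of its own cell type, so that sum is partly set by the choice of wells. Col1a1 wells numbered 173 and 283 on the E12.5 and E11.5 cultured plates and 137 on the uncultured plate. Wells in none of the 3 classes numbered 1 and 0 in culture and 79 without it. In Col1a1 wells stroma markers still summed to 20395 and 27387 CPM in culture against 6896 CPM without it. Macrophage and other leukocyte markers summed to 317 and 890 CPM there against 37.0 CPM, and endothelium markers to 434 and 149 CPM against 29.8 CPM. Wells of this name were therefore not alike across plates, and the classes do not set culture apart from make-up.

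Within Col1a1 wells the culture differences of Cyr61 and Fn1 were smaller and that of Itga8 larger than over whole plates. Cyr61 was at 224 and 566 CPM against 159 CPM, 1.41-fold (1.17 to 1.70) and 3.55-fold (3.01 to 4.21) higher. Fn1 was at 1364 and 1400 CPM against 899 CPM, 1.52-fold and 1.56-fold higher, short of 2-fold on both plates. Ctgf was at 58.4 and 48.0 CPM against 6.17 CPM from 6 counts, 9.47-fold (4.21 to 26.3) and 7.78-fold (3.48 to 21.5) higher. Itga8 was at 89.8 and 92.8 CPM against 43.2 CPM, 2.08-fold (1.48 to 2.99) and 2.15-fold (1.55 to 3.05) higher. Amotl2 went the other way, at 76.9 and 85.3 CPM against 148 CPM, with ratios of 0.52 (0.41 to 0.66) and 0.58 (0.47 to 0.71). Itgav, at 92.9 and 111 CPM against 129 CPM, was also lower on the E12.5 cultured plate, with a ratio of 0.72 (0.57 to 0.92), while the E11.5 interval, 0.70 to 1.07, included 1. Itga5 was 2.04-fold and 2.19-fold higher on 57 and 93 counts against 14 counts. Without wells over 3 times the median the Ctgf folds were 4.90 and 3.76, Itga5 at E12.5 fell short of 2-fold at 1.95, and the Amotl2 ratio at E12.5 was 0.43. In all 3 of 9 and 4 of 9 genes were at least 2-fold higher and 0 lower, where 19.0% and 20.8% of all features tested in these wells were that much higher and 11.4% and 9.36% lower. Immediate early genes summed to 8460 and 9610 CPM against 1661 CPM, and smooth muscle markers to 2202 and 1307 CPM against 122 CPM, in these wells; their part was not tested.

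**Figure D2:**
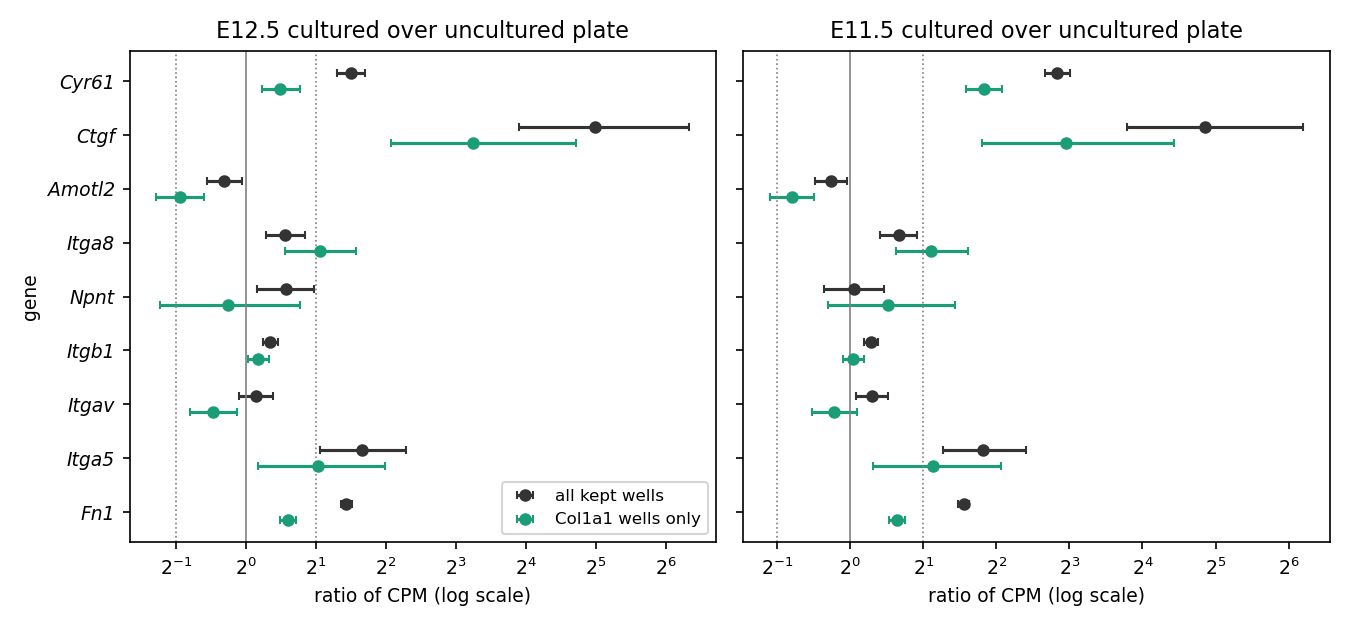
Ratio of CPM of each cultured plate over the uncultured plate on a log axis, over all kept wells and within Col1a1 wells, with 95% counting intervals; dotted lines mark 2-fold. Amotl2 lies left of 1 in both, and Itga8 passes 2 only within Col1a1 wells.

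Six2 wells gave a second within-class comparison, with 16 and 13 wells on the cultured plates and 105 on the uncultured plate. All 16 and all 13 cultured Six2 wells also held at least 2 Col1a1 counts, against 41 of 105 uncultured ones, and their stroma markers summed to 23720 and 17390 CPM against 1721 CPM. The label of progenitor wells therefore holds poorly in culture, although progenitor markers summed to 1638 and 1250 CPM there against 2005 CPM. Six2 itself, which chose the wells, is part of that sum. In these wells Cyr61 was at 203 and 428 CPM against 50.7 CPM, 4.003-fold (2.86 to 5.59) and 8.42-fold (6.29 to 11.3) higher. Without wells over 3 times the median Cyr61 stood at 111 and 438 CPM against 23.4 CPM, 4.77-fold and 18.7-fold higher. Fn1 was at 1160 and 1263 CPM against 346 CPM, 3.36-fold and 3.65-fold higher. Itga5 was at 29.9 and 36.0 CPM on 9 and 8 counts, against 5.33 CPM on 10 counts. Itga8 differed little, at 86.4 and 85.4 CPM against 77.8 CPM, with intervals of the ratio of 0.70 to 1.70 and 0.64 to 1.78. Of the genes with at least 10 counts 4 of 9 and 3 of 8 were at least 2-fold higher, Ctgf on 13 counts against 1 among the 4, and 1 was lower on each plate, Npnt on 3 and 1 counts against 40. Of all features in these wells 14.4% and 16% were that much higher and 19.2% and 18.6% lower. The part of the stromal transcripts in these differences was not tested.

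On the uncultured plate itself the members separated Six2 wells from Col1a1 wells. Fn1 was at 346 CPM in Six2 wells and 899 CPM in Col1a1 wells, a ratio of 0.38 (0.35 to 0.43). Cyr61 was at 50.7 and 159 CPM, a ratio of 0.32 (0.24 to 0.41), and Amotl2 at 75.7 and 148 CPM, a ratio of 0.51 (0.40 to 0.65). Itga8 ran the other way, at 77.8 CPM in Six2 wells and 43.2 CPM in Col1a1 wells, 1.80-fold (1.269 to 2.601) higher. Of 8 genes with at least 10 counts 0 were 2-fold higher and 3 lower, the third being Itga5, where 7.07% of all features were higher and 8.97% lower. Without wells over 3 times the median the Cyr61 ratio was 0.15 (0.09 to 0.24), 23.4 and 156 CPM, and 5 genes were lower, Amotl2 at 0.48 and Itgav at 0.44 being the ones added. Itga8 was found in 53.3% of Six2 wells, at a median depth of 10511 counts, and in 17.5% of Col1a1 wells, at 5768 counts. Wells with at least 2 counts of the macrophage gene C1qb, where Itga8 is not expected, showed it in 4 of 19, at 35.8 CPM and 6312 counts, against 43.2 CPM in Col1a1 wells. These C1qb wells also held 1113 CPM of nephron progenitor markers, against 438 CPM in Col1a1 wells, and 7 of their 10 Itga8 counts lay in 1 well, so they are no clean background for Itga8. Wells with at least 2 counts of the endothelial gene Pecam1 showed it in 1 of 18, at 3.23 CPM, despite a median of 13138 counts.

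The ligand and receptor pair was then followed across the epithelial and progenitor wells. Npnt was highest in cultured Epcam wells. Of 96 counts on the E12.5 cultured plate 68 lay in 10 Epcam wells and 25 in 173 Col1a1 wells, and of 92 on the E11.5 cultured plate 26 lay in 4 Epcam wells and 65 in 283 Col1a1 wells. In E12.5 cultured Epcam wells Npnt ranged from 0 to 16 counts with a median of 4.5, and in E11.5 cultured ones from 3 to 11 with a median of 6. This gave 675 CPM (525 to 856) in Epcam wells and 9.97 CPM, 3 counts, in Six2 wells of the E12.5 cultured plate, a 67.7-fold (22.2 to 336) difference. On the E11.5 cultured plate it gave 561 CPM (367 to 822) in Epcam wells and 4.50 CPM, 1 count, in Six2 wells, a ratio of 125 (20.5 to 5118). In Col1a1 wells Npnt was at 12.9, 22.1 and 15.4 CPM on the E12.5 cultured, E11.5 cultured and uncultured plates, where C1qb wells had 26.9, 5.54 and 21.5 CPM on 2, 1 and 6 counts.

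Itga8 was higher in Six2 than Epcam wells on the cultured plates, on few counts. It had 26 counts, 86.4 CPM, in Six2 wells and 0 counts in the 10 Epcam wells of the E12.5 cultured plate, at least 2.90-fold higher with 3 counts taken as the floor of the Epcam group. It had 19 counts, 85.4 CPM, in Six2 wells and 1 count in the 4 Epcam wells of the E11.5 cultured plate, a ratio of 3.96 whose interval, 0.63 to 164, includes 1. Six2 and Col1a1 wells had like levels in culture, at 86.4 and 89.8 CPM at E12.5, a ratio of 0.96 (0.61 to 1.46), and 85.4 and 92.8 CPM at E11.5, a ratio of 0.92 (0.55 to 1.46). In the E11.5 cultured plate's 16 C1qb wells, which also held 3109 CPM of Col1a1, Itga8 stood at 105 CPM with 11 of 19 counts in 1 well, and at 48.8 CPM (21.1 to 96.1) without that well. The 5 C1qb wells of the E12.5 cultured plate held 0 Itga8 counts, and the 3 Pecam1 wells of the E11.5 cultured plate held 1, 28.1 CPM. Epcam wells carried little Fn1 on the E12.5 cultured plate, 139 CPM against 1364 CPM in Col1a1 wells, a ratio of 0.10 (0.06 to 0.17). Itgav was higher in Epcam than Col1a1 wells of both cultured plates, at 169 against 92.9 CPM and at 324 against 111 CPM, 1.82-fold (1.04 to 2.99) and 2.93-fold (1.62 to 4.91). Without the deepest of the 4 E11.5 Epcam wells the second was 2.20-fold (0.88 to 4.58), an interval that includes 1.

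The Epcam wells of the uncultured plate do not match their name well. The 5 deepest of its 16 held 45542 to 154193 counts, 15 to 105 Six2 counts and 2 to 5 Epcam counts, and the deepest held 1681 counts of the embryonic globin Hbb-y. Epithelium markers summed to 3013 and 4671 CPM in E12.5 and E11.5 cultured Epcam wells and 321 CPM over all 16 uncultured ones, whose progenitor markers summed to 1760 CPM. Npnt stood at 52.7 CPM there and 21.3 CPM in Six2 wells, 2.48-fold (1.53 to 3.98) higher, or 1.49-fold without the top Npnt well of each class. Without wells over 3 times the median, epithelium markers summed to 2012 CPM in the 10 Epcam wells left, 612 CPM of it from Epcam itself. Npnt stood at 372 CPM (257 to 519) in these Epcam wells and 22.1 CPM in 87 Six2 wells, 16.8-fold (9.22 to 31.6) higher. In those 10 wells Npnt had 34 counts, 17, 7, 4 and 4 of them in the 4 wells with 7 or more Epcam counts. Itga8 was at 87.3 CPM in those Six2 wells and 32.8 CPM, 3 counts, in those Epcam wells, a ratio of 2.66 (0.87 to 13.2). The fold of Npnt between cultured and uncultured Epcam wells, 12.8 and 10.6 over all wells, rests on the same deep wells: the uncultured level is 52.7 CPM with them and 372 CPM without.

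**Figure D3:**
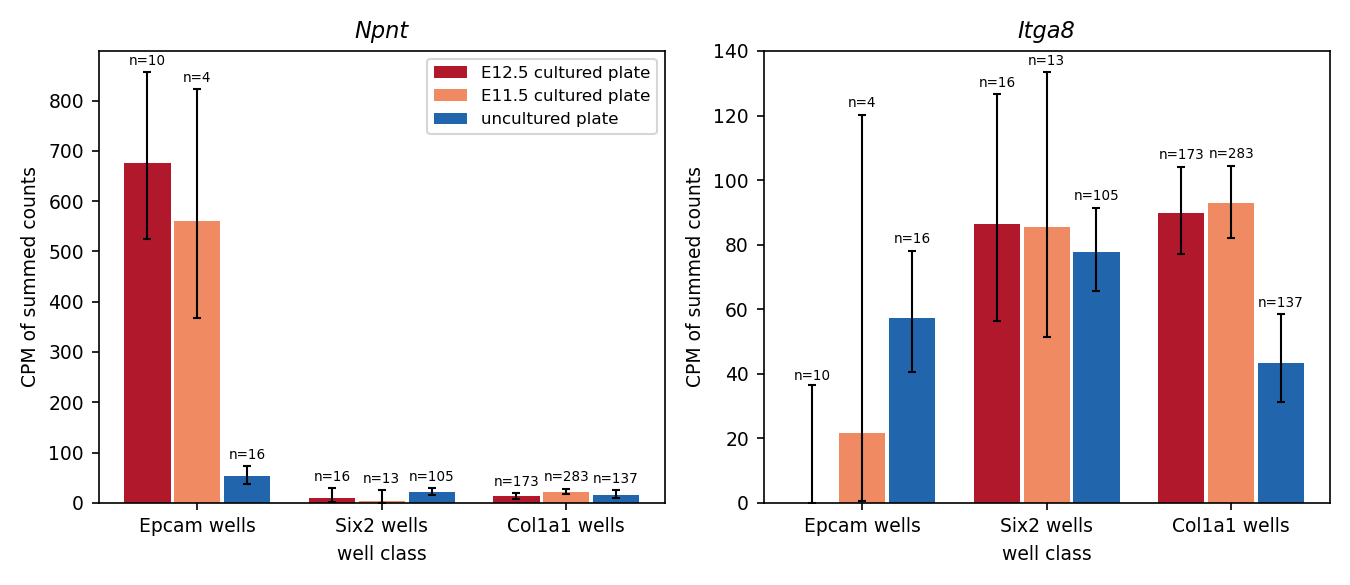
Npnt and Itga8 in Epcam, Six2 and Col1a1 wells of each plate, in CPM with exact Poisson 95% intervals and the number of wells above each bar. Npnt reached 675 and 561 CPM in cultured Epcam wells, and Itga8 had 0 counts and 1 count there.

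Ligand and receptor were then counted in the same well. Both were found in 2 of 200 kept wells of the E12.5 cultured plate, 11 of 300 of the E11.5 cultured plate and 16 of 337 of the uncultured plate. Npnt alone was found in 22, 21 and 41 wells and Itga8 alone in 76, 112 and 81. The product of the separate shares, which takes no account of well depth, would give 9.36, 13.1 and 16.4 wells with both. The number seen was lower than this product mainly on the E12.5 cultured plate, a gap that was not tested. Of the 16 uncultured wells with both, 12 were Six2 wells. Six2 wells made up 105 of the 337 kept wells and were deeper, with a median of 10511 counts against 6732 over the plate. The part of depth was not tested. A count of 0 in a well of this depth does not show that the transcript was absent.

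Within the Col1a1 wells of culture, Ctgf was at a higher level in those with a smooth muscle marker. Myh11, the smooth muscle myosin heavy chain, had at least 2 counts in 19 Col1a1 wells of the E12.5 cultured plate and 12 of the E11.5 cultured plate, and in 0 kept wells of the uncultured plate. Ctgf stood at 253 CPM (203 to 311) in Col1a1 wells with Myh11 and 14.5 CPM (9.22 to 21.8) in those without on the E12.5 cultured plate, 17.4-fold (10.9 to 28.8) higher. On the E11.5 cultured plate it stood at 320 CPM (249 to 404) with Myh11 and 26.4 CPM (20.7 to 33.3) without, 12.1-fold (8.57 to 17.1) higher. Without wells over 3 times the median these folds were 16.4 and 4.44 (2.10 to 8.56). The counts behind them were 38.1 with Myh11 and 18 without at E12.5, and 11 with and 57 without at E11.5. The wells without Myh11 can be set beside the 6.17 CPM (2.27 to 13.4) of uncultured Col1a1 wells, whose interval overlaps that of the E12.5 cultured wells and not that of the E11.5 cultured ones. Few wells held most of the Ctgf. Over all kept wells the top 5 held 72.3% of all Ctgf counts at E12.5 and 59.9% at E11.5. Those ranked 3 and 4 at E11.5 had 15 Ctgf counts each but 0 Myh11 counts, and the first of them was an Epcam well. Ctgf was seen in 8 of 19 and 4 of 12 Col1a1 wells with Myh11. Wells with Myh11 were also deeper, with medians of 13839 and 14056 counts against 8161 and 8703 without.

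With wells over 3 times the median included, the other genes set these Col1a1 wells apart less than Ctgf. Fn1 was at 1978 CPM with Myh11 and 1226 CPM without on the E12.5 cultured plate and at 2827 CPM and 1287 CPM on the E11.5 cultured plate, 1.61-fold and 2.20-fold higher. Amotl2 was 1.92-fold (1.32 to 2.75) and 2.83-fold (2.01 to 3.92) higher, and Cyr61 only 1.49-fold (1.19 to 1.86) and 1.33-fold (1.13 to 1.57). Itga8 did not separate them, at 92.7 and 89.2 CPM on the E12.5 cultured plate and 83.4 and 93.5 CPM on the E11.5 cultured plate. Itgb1 was 1.30-fold and 1.56-fold higher with Myh11. Its folds were 1.43 (1.19 to 1.72) and 1.62 (1.30 to 1.99) without wells over 3 times the median. Past 2-fold were 1 of 9 and 5 of 9 genes, where 4.49% and 7.14% of all features were that much higher and 15.3% and 23.6% lower. The 5 on the E11.5 cultured plate were Ctgf, Npnt, Amotl2, Fn1 and Itga5. Without wells over 3 times the median Fn1 was 1.31-fold and Itga5 1.48-fold higher there, leaving 3 past 2-fold, and Amotl2 at E12.5 turned to a ratio of 0.87 (0.42 to 1.62). Npnt had a ratio of 0.61 at E12.5 and 3.47 at E11.5 over all wells. Without those deep wells its ratio was 1.055 (0.20 to 3.51) at E12.5, on 3 counts with Myh11. At E11.5 it was then 7.33 (3.71 to 13.6), on 14 counts with Myh11, above the 4.44 of Ctgf.

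**Figure D4:**
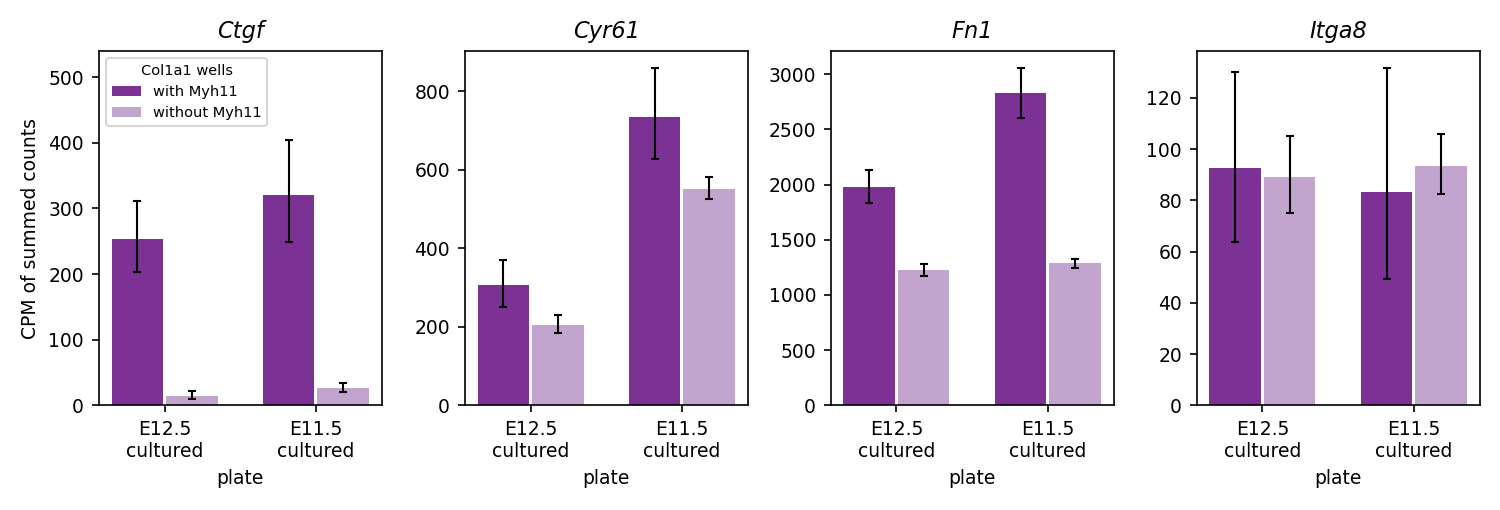
Ctgf, Cyr61, Fn1 and Itga8 in Col1a1 wells with and without Myh11 on the 2 cultured plates, in CPM with exact Poisson 95% intervals; each panel has its own scale. Ctgf stands at 253 and 320 CPM with Myh11 against 14.5 and 26.4 CPM without, while the Itga8 intervals overlap.

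Endothelial wells stood out for the β subunit. Itgb1 was at 896 CPM (795 to 1009) in the 18 Pecam1 wells of the uncultured plate and 423 CPM in its other wells, 2.12-fold (1.86 to 2.41) higher. It ranged from 3 to 41.2 counts in these 18 wells, with a median of 12. The cultured plates gave the same direction on 1 well, 1846 CPM, and 3 wells, 1606 CPM, against 541 and 547 CPM elsewhere. Itga5 was also higher in uncultured Pecam1 wells, at 29.1 against 7.27 CPM on 9 and 28 counts, 3.995-fold (1.66 to 8.71), or 3.64-fold (0.89 to 11.3) without wells over 3 times the median.

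Wells that received more than 1 cell, by the labels, were compared with single-cell wells of the same plate, 38 and 36 kept wells with medians of 11730 and 10168 counts. Npnt was higher in both: 112 CPM in multi-cell and 40.9 CPM in single-cell wells of the E12.5 cultured plate, 2.75-fold (1.99 to 3.77), and 173 CPM and 28.6 CPM on the E11.5 cultured plate, 6.05-fold (4.53 to 8.05). The E12.5 fold was 1.89 against single-cell wells of the same rows and 1.91 without wells over 3 times the median. Fn1 was lower in both, at 527 and 1280 CPM on the E12.5 cultured plate, a ratio of 0.41 (0.37 to 0.46), and at 928 and 1390 CPM on the E11.5 cultured plate, a ratio of 0.67 (0.61 to 0.73). Cyr61 differed in direction, at 118 and 219 CPM on the E12.5 cultured plate, a ratio of 0.54 (0.42 to 0.69), and at 705 and 554 CPM on the E11.5 cultured plate, a ratio of 1.27 (1.14 to 1.41). The second ratio turned to 0.74 without wells over 3 times the median and to 0.93 as a mean of CPM per well, and 1 multi-cell well held 37.4% of the Cyr61 counts. Ctgf was at 17.1 and 53.7 CPM on the E12.5 cultured plate and at 58.7 and 49.0 CPM on the E11.5 cultured plate. On the E12.5 cultured plate 1 of 9 genes, Npnt, was at least 2-fold higher and 3 lower, Fn1, Ctgf and Itga5, where 9.65% and 12.6% of features were; on the E11.5 cultured plate 1 was higher and 0 lower, where 6.02% and 12.1% were. With wells thinned to 1000 counts the E12.5 ratios of Ctgf and Itga5 turned to 1.32 each, on few counts.

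Cell type markers moved with these wells. On the E12.5 cultured plate stroma markers summed to 5664 CPM in multi-cell and 19930 CPM in single-cell wells, progenitor markers to 1961 and 488 CPM, epithelium markers to 786 and 142 CPM, erythroid markers to 8903 and 125 CPM, and smooth muscle markers to 185 and 2055 CPM. On the E11.5 cultured plate stroma markers summed to 27146 and 26323 CPM, podocyte markers to 503 and 143 CPM, and progenitor markers to 845 and 294 CPM. An epithelium cut took wells with at least 2 counts summed over the epithelium markers. A podocyte cut took wells with at least 2 podocyte marker counts and fewer than 2 epithelium marker counts. Of the multi-cell wells with at least 2 Npnt counts, a cut chosen after the values were seen, 9 of 10 at E12.5 and 5 of 11 at E11.5 passed the epithelium cut, and 1 and 5 the podocyte cut. Of all multi-cell wells 16 of 38 and 8 of 36 passed the epithelium cut and 9 and 14 the podocyte cut. The part of this make-up in the differences was not tested.

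**Figure D5:**
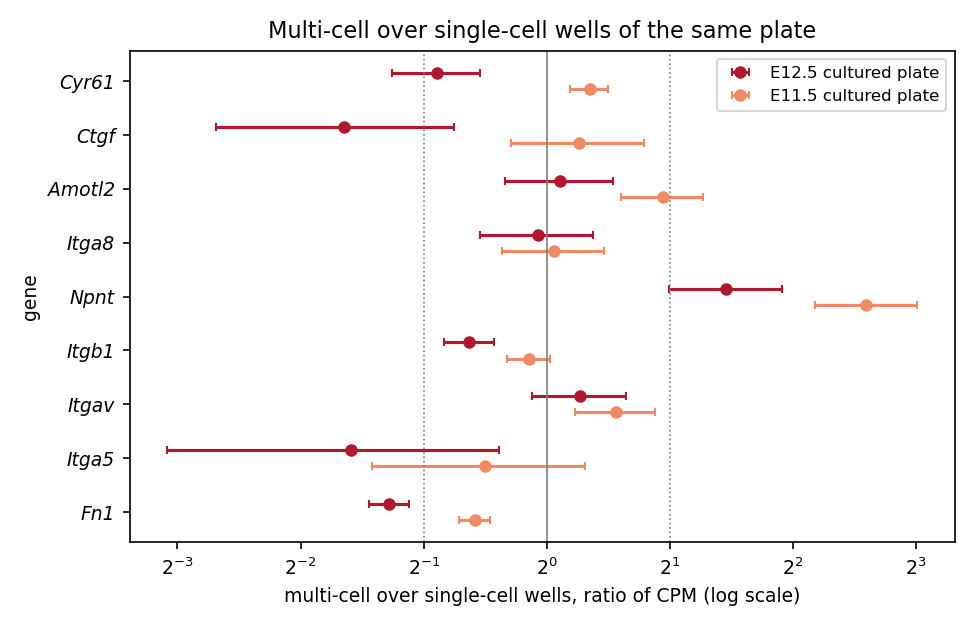
Ratio of CPM of multi-cell over single-cell wells of each cultured plate on a log axis, with 95% counting intervals; dotted lines mark 2-fold. Npnt lies above 1 and Fn1 below 1 on both plates, and Cyr61 lies on either side, at 0.54 and 1.27.

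Among related genes, lists of pathway members were read the same way, against a median log2 ratio over all features of -0.01 for the E12.5 cultured plate and 0.07 for the E11.5 one. After the immediate early genes, with medians of 2.78 and 3.18, actin and smooth muscle genes under MRTF and SRF were the most shifted of these lists, with 9 of 12 and 8 of 12 at least 2-fold higher in culture, 0 lower, and median log2 ratios of 2.24 and 2.14. The smooth muscle markers, which summed to 2055 and 1236 CPM against 71.0 CPM, are Myh11 and 4 members of this same list, Acta2, Tagln, Actg2 and Cnn1, so they are largely the same counts. Actg2, a smooth muscle actin, was at 252 and 101 CPM against 2.40 CPM, while Srf itself was at 94.9 and 96.2 CPM against 124 CPM. Of ligands of RGD-binding integrins 7 of 11 were higher and 1 lower on each plate. Postn, a stromal matrix protein, was at 246 and 437 CPM against 26.4 CPM, and Edil3 at 8.94 and 8.41 CPM against 19.0 CPM.

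The YAP pathway lists were less shifted. Of other YAP and TEAD targets 4 of 19 were higher and 2 lower on the E12.5 cultured plate, and 7 of 20 and 2 on the E11.5 cultured plate, with median log2 ratios of 0.42 and 0.78. Of all features 18.9% and 20.9% were higher and 13.1% and 11.3% lower. The E12.5 counts of this list are near those shares, while its 7 of 20 higher at E11.5 lie above the 20.9%. Nuak2, a kinase gene, was at 5.53 and 10.6 CPM against 1.92 CPM, and Dock5, the lowest, at 6.81 and 9.03 CPM against 51.2 CPM. Of the Hippo core 1 of 21 was higher, Wwc1, and 1 lower on the E12.5 cultured plate, and 0 and 2 on the E11.5 cultured plate. Its lowest on both plates was Amot, a YAP-binding scaffold, at 39.2 and 35.5 CPM against 101 CPM. On the E11.5 cultured plate Ptpn14, which is also in the list of other YAP and TEAD targets, came next, at 31.8 CPM against 68.5 CPM. Wwtr1, which encodes TAZ, had the highest ratio on the E11.5 cultured plate, 116 CPM against 60.4 CPM, 1.92-fold (1.64 to 2.27).

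Integrin subunits outside the 10 genes were higher in 4 of 15 and 8 of 16 cases and lower in 2 and 1, the E12.5 counts being close to the shares of all features just given. The 8 of 16 at E11.5 lie above the 20.9% of all features, with a median log2 ratio of 1.035. Itga11, a collagen-binding subunit, was at 16.6 and 12.46 CPM against 0.962 CPM, and Itgb3 at 11.49 and 6.54 CPM against 15.6 CPM. Of 18 focal adhesion genes 2 were higher and 0 lower on each plate, Tns1 and Vcl, which encode tensin 1 and vinculin, a smaller share than the 18.9% and 20.9% of all features. Vcl was at 124 and 117 CPM against 56.0 CPM, and Ptk2, focal adhesion kinase, was lowest at 70.7 and 59.5 CPM against 110 CPM.

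Across wells thinned to 2000 counts, few genes followed the members. Fn1 was most like Col3a1, with Pearson correlations of 0.39 over 195 E12.5 cultured wells and 0.37 over 314 uncultured wells, followed by Col1a1 and Tmsb4x on the E12.5 cultured plate and by Col1a2 and Cald1 on the uncultured plate. Itga8 was most like Dlc1 on the E12.5 cultured plate, at 0.32. No other gene among the 10 reached 0.3 on any plate, and Ctgf, Ankrd1, Npnt and Itga5 were in under 10% of the thinned wells of every plate. The wells share a plate and differ in cell type.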

How the data were processed

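SORT-seq was run on 3 plates, 1 per group, of 384 wells each. The authors deposited expected counts, which are molecular identifier counts corrected for collisions among 4096 identifiers, as tested on the values. Per the submitters' processing notes the tools were STAR 2.6.1a and featureCounts 1.5.2, on GRCm38.p5. The deposited values were kept unrounded except for intervals and thinning. No count model was fitted, because each group is 1 plate.

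Wells labelled as controls (15 per plate) were set apart, as were 42 multi-cell wells on each of the cultured plates. Other wells were kept with at least 1000 nuclear-encoded counts and at most 30% mitochondrial counts; no doublet caller was run. CPM are per 1000000 such counts, leaving out mitochondrial genes, spike-ins and added sequences. The plates use the same well numbers, so wells of different plates are not the same cells. Levels have exact Poisson intervals, and ratios the exact binomial (Clopper-Pearson) interval of how the counts divide, both at 95%. Features with at least 10 counts in a pair were counted past 2-fold. A count with no known well held 4.27%, 4.26% and 4.21% of the E12.5 cultured, E11.5 cultured and uncultured totals and was left out.

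The members and lists were chosen with earlier results of these data known. From each list the 2 highest and 2 lowest E11.5 culture ratios were to be named, and for likeness the 5 genes most correlated over thinned wells where the highest reached 0.3. Of these the text gives a selection made after the values were seen; Wwc1 falls outside the rule. Python 3.11.15, numpy 2.4.6, pandas 2.3.3, scipy 1.17.1 and matplotlib 3.10.9 were used, and ratios and intervals were tested on simulated data. Alternatives changed the well filter, marker minimum, scaling, weighting and depth, and left out wells.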

Additional observations from a re-analysis of the deposited data

Results flagged for a closer look

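Each result below had opposite directions on the cultured plates; with 1 plate each the difference was not tested. Cyr61 in multi-cell over single-cell wells had a ratio of 0.540 at E12.5 and 1.27 at E11.5, and the second turned to 0.74 without wells over 3 times the median. Ctgf in Epcam over Six2 wells had a ratio of 0, from 0 counts in Epcam wells, at E12.5 and 72.0 at E11.5. Ctgf in Epcam over Col1a1 wells had a ratio of 0 at E12.5 and 6.75 at E11.5. Itgb1 in Epcam over Col1a1 wells had a ratio of 0.621 at E12.5 and 1.72 at E11.5.

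The last 3 rest on 1 well. The deepest of the 4 Epcam wells of the E11.5 cultured plate, with 17507 counts, held all 15 Ctgf counts, 62.5 of 63.5 Fn1 counts, 33.1 of 44.1 Itgb1 counts and 20 of 21 Cyr61 counts of these wells, beside 11 Epcam and 5 Npnt counts. Without it, in a comparison added after the values were seen, the Epcam wells held 0 Ctgf counts, and their ratio to Col1a1 wells was 0.69 (0.34 to 1.23) for Itgb1, 2.20 (0.88 to 4.58) for Itgav, 0.02 for Fn1 on 1 count, and 33.0 (19.2 to 54.7) for Npnt.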

How the results depend on the processing

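No paired analysis was possible because each group is 1 plate. Of the main results, 128 alternatives stayed within 1.5 times the main count or within its interval, 26 moved and 1 reversed; of single genes 346 stayed, 100 moved and 2 reversed. The genes at least 2-fold higher in culture were Cyr61, Ctgf, Itga5 and Fn1 under every alternative on both plates but thinning to 1000 counts, which gave Cyr61, Ctgf, Itga8 and Fn1 at E12.5 and Cyr61, Itga5 and Fn1 at E11.5, with the Ctgf ratio running from 6.74 to 33.5 and from 2.81 to 32.7, lowest with wells thinned to 1000 counts. Under thinning Itga5 at E12.5 and Ctgf at E11.5 were still past 2-fold. They had fewer than 10 counts in the pair, so they were not counted. Thinning gave 1 gene 2-fold higher on the E12.5 over the E11.5 cultured plate. For multi-cell over single-cell wells of the E12.5 cultured plate, genes higher were 0 with single-cell wells of rows A to G, 0 without deep wells and 2 with thinning, and genes lower 1 with the mean of CPM per well and 1 with thinning. On the E11.5 cultured plate, genes higher were 2 with rows A to G, 3 with the mean of CPM and 2 with thinning, and genes lower 1 with the mean of CPM, without deep wells and with thinning. With thinning Ctgf and Itga5 in multi-cell over single-cell wells of the E12.5 cultured plate reversed to 1.32 each, on few counts. Leaving out deep wells within 1 class of wells was added after the values were seen. It gave 5 genes lower in Six2 over Col1a1 wells of the uncultured plate, and 2 higher and 1 lower in Col1a1 wells for E12.5 culture over no culture. It gave 2 higher in Six2 wells for E11.5 culture over no culture, and 3 higher in Col1a1 wells with over without Myh11 of the E11.5 cultured plate. In uncultured Pecam1 wells over other wells it moved the Npnt ratio from 0.93 to 0.36 (0.04 to 1.34), on 2 counts in Pecam1 wells. Npnt in Epcam over Six2 wells of the uncultured plate was 6.49 with a marker minimum of 3 counts, 10.4 as mean of CPM, 1.49 without its top well and 16.8 without deep wells. On the E12.5 cultured plate it was 2.13 with thinning, where Six2 wells had 0 counts and were set to 3. Itga8 in Six2 over Epcam wells of the uncultured plate was 2.77 with a minimum of 3 counts, 2.92 as mean of CPM and 2.66 without deep wells. On the E12.5 cultured plate it was 1.18 with a minimum of 1 count. Without its top well it was 1.85, with the Epcam group set to 3 counts. On the E11.5 cultured plate it became 0.771, with the Epcam group set to 3 counts, once the well with its 1 Epcam-well count was left out. Control wells held 2940, 2738 and 13768 counts in all on the E12.5 cultured, E11.5 cultured and uncultured plates, too few to set a background for these genes. The log2 median ratios used for scaling were -0.05 for E12.5 culture over no culture, -0.07 for E11.5 culture over no culture and 0.03 between the cultured plates. Scaling subtracted them, so log2 ratios of culture over no culture rose slightly and those between the cultured plates fell slightly.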
